A study of Rattus norvegicus with 22 samples.

Results

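The genes described here encode ion channels and a transporter of the sperm tail: the CatSper pore subunits Catsper1, Catsper2, Catsper3 and Catsper4, the potassium channel Kcnu1, the proton channel Hvcn1 and the sodium/proton exchanger Slc9c1. They were found by symbol, through the accession that the array files pair with each probe, and 4 of the 7 had a probe among the 15154 genes with a symbol. Catsper2, Catsper3, Catsper4 and Slc9c1 had 1 probe each. Catsper1, Kcnu1 and Hvcn1 had no probe that mapped to them and were not analysed here.

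CatSper is a calcium channel of the sperm tail's plasma membrane whose pore is built from CatSper1 to CatSper4, and mouse sperm that lack a pore subunit cannot switch to the vigorous beating called hyperactivation. Kcnu1 encodes the pH-gated potassium channel SLO3 and Hvcn1 a voltage-gated proton channel, and Slc9c1 encodes a sperm exchanger that is tied to cyclic AMP signalling. Pachytene spermatocytes are germ cells in meiotic prophase, and round spermatids are the haploid cells that later grow the tail, so the transcripts were measured before the proteins act in motile sperm.

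RNA was measured on 22 one-colour Agilent arrays in 4 groups of male germ cells: round spermatids of rats gavaged with cyclophosphamide (n = 6), round spermatids of rats gavaged with saline (n = 6), pachytene spermatocytes after cyclophosphamide (n = 5) and pachytene spermatocytes after saline (n = 5). Cyclophosphamide, an alkylating anticancer drug, was given at 6 mg/kg, and both treatments ran 6 days a week for 4 weeks. The labels name all animals as male rats, the strain and age are not given in the sources used here, and all cells were separated by sedimentation at unit gravity. The series title and design ask what chronic cyclophosphamide does to transcripts in each cell type, and the array design also allows the cell types to be compared. Each array was taken as a different rat. The arrays lay on 4 slides. Slides 1 and 2 each held 3 round spermatid arrays and 1 pachytene array per treatment. Slides 3 and 4 held pachytene arrays only, 2 cyclophosphamide and 1 saline on slide 3, and 1 cyclophosphamide and 2 saline on slide 4. Cell type and slide were thus partly confounded.

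A level is given here as the log2 of a probe's processed signal minus the log2 of the array's 75th percentile, so that 0 stands at that percentile, and the level of 1 probe is not set against that of another. Over the 22 arrays the 75th percentile lay between 1069 and 2423 intensity units, 65.3% to 76.4% of probes stood well above background, and none of the spots was saturated. All 4 channel genes were well above background on all 22 arrays. The labelled cell types fitted part of their markers: 11 of 11 round spermatid markers were higher in round spermatids of saline rats, while 8 of 11 pachytene markers were lower there and 1 was higher. The summed linear level of the round spermatid markers was 224 to 316 in cyclophosphamide and 227 to 325 in saline round spermatids, against 41.3 to 62.2 in cyclophosphamide and 44.9 to 80.8 in saline pachytene spermatocytes, in units of each array's 75th percentile. Markers of other cells moved with the cell type as well. The summed level of the macrophage list (11 of 11 genes on the array, all of them above background in round spermatids) was 53.4 to 88.9 in cyclophosphamide and 53.3 to 81.6 in saline round spermatids, against 8.76 to 18.2 in cyclophosphamide and 9.93 to 22.3 in saline pachytene spermatocytes, where Ptprc was not above background on any array. The summed level of the Sertoli list was 1.82 to 4.15 in cyclophosphamide and 1.97 to 5.94 in saline round spermatids, against 19.5 to 34.3 in cyclophosphamide and 21.1 to 31.2 in saline pachytene spermatocytes. The summed level of the late spermatid list was 999 to 1758 in cyclophosphamide and 975 to 1627 in saline round spermatids. In pachytene spermatocytes it was 427 to 669 after cyclophosphamide and 437 to 839 after saline. The summed levels of the peritubular and spermatogonial lists were also higher in round spermatids, and that of the Leydig list was lower. The part of these other cells in the results below was not tested.

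Promoters are shown for the channel genes for which the sequence table held one and for Efcab9, whose product is a calcium sensor of the CatSper complex, because Catsper3 and Efcab9 had the largest differences between cell types among the genes of the channel and its listed partners, while Catsper4 and Slc9c1 had none that passed. Each run is the 250 bases before the annotated start in RefSeq on assembly GRCr8, 5′ to 3′ on the gene's strand, which was the minus strand in each case, and capitals mark matches to the motifs named below. The windows lie at chr17:8846051-8846300 (Catsper3, the first of 2 start sites), chr10:17616567-17616816 (Efcab9), chr5:151730698-151730947 (Catsper4, the first of 2 start sites) and chr11:68740875-68741124 (Slc9c1).
Catsper3: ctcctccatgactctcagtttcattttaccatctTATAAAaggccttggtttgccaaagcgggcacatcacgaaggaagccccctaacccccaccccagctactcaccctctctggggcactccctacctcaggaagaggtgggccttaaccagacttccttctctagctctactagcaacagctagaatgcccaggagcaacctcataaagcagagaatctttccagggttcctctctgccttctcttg
Efcab9: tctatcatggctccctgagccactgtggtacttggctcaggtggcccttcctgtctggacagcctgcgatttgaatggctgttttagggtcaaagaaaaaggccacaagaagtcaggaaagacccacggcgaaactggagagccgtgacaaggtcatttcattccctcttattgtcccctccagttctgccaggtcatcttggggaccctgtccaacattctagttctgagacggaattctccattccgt
Catsper4: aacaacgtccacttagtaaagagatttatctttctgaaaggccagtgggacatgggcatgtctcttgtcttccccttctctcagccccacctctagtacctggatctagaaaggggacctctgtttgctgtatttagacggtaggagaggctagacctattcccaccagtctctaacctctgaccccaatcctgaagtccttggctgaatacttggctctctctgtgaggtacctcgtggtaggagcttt
Slc9c1: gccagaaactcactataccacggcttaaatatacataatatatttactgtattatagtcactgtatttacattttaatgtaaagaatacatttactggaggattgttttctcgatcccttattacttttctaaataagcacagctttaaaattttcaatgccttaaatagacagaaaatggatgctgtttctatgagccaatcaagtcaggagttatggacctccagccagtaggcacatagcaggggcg
Motifs were searched on both strands: the cyclic AMP response element TGACGTCA and its half-site TGACG, which lies inside it, the X-box half-site GGCAAC and the TATA box TATAAA. The Catsper3 window held TATAAA at -216 bases from the start (-234 from the second start site), and the other 3 windows held none of these letters. Whether this match of letters acts as a TATA box was not tested. Over 33469 promoter windows of this length, 12.9% held TATAAA, 18.2% TGACG, 1.59% TGACGTCA and 9.89% GGCAAC on either strand. The short core AACNG, bound by MYB proteins, was also searched. It is left in lower case because 75.2% of all windows hold it.

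Catsper3 was higher in round spermatids than in pachytene spermatocytes under both treatments, and its arrays separated fully by cell type. In cyclophosphamide rats the log2 level of Catsper3 was 1.84 at its lowest, 2.08 at its median and 2.47 at its highest in round spermatids, against -0.81, -0.56, -0.68, -0.93 and -0.52 in the pachytene spermatocytes of rats 7, 15, 16-2011, 16-2012 and 29. All 6 round spermatid arrays lay above all 5 pachytene arrays. The difference was 2.82 ± 0.16 on the log2 scale (SE, limma, adjusted p = 3.47e-13), or 7.07-fold (95% interval 5.64 to 8.85). In saline rats its log2 level was 1.84 at its lowest, 1.93 at its median and 2.20 at its highest in round spermatids, against -0.44, 0.29, -0.65, -0.83 and -0.33 in the pachytene spermatocytes of rats 13, 16, 25, 26 and 28. The arrays did not overlap here either. The difference was 2.36 ± 0.16 (SE, limma, adjusted p = 1.1e-11), or 5.13-fold (4.09 to 6.42). The cyclophosphamide difference was exceeded by 1318 of 19352 genes tested, and the saline difference by 1381 of 19422. On the slides that held both cell types the log2 difference of Catsper3 was 2.67 (slide 1) and 2.66 (slide 2) after cyclophosphamide and 2.37 and 2.65 after saline. The cells were measured in bulk, so fewer expressing cells and less RNA per cell cannot be told apart.

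**Figure D1:**
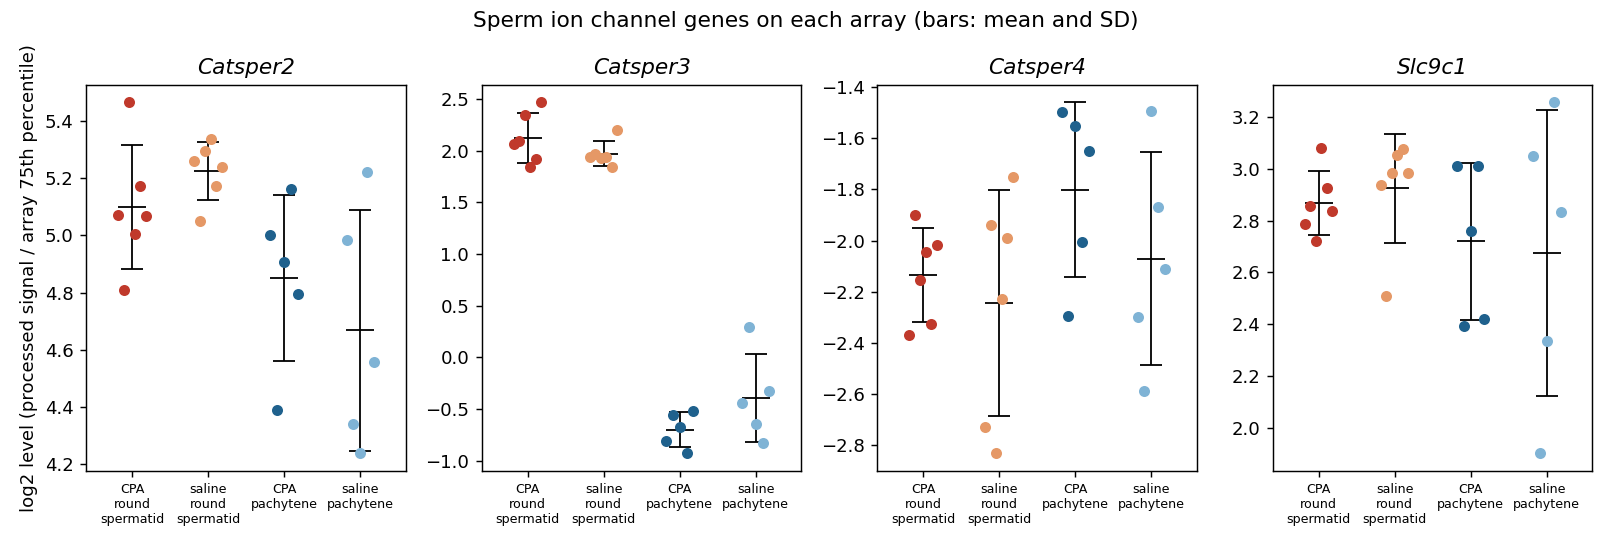
Log2 level of each of the 4 measured channel genes on each array, in cyclophosphamide (CPA) and saline round spermatids (n = 6 each) and in CPA and saline pachytene spermatocytes (n = 5 each); points are arrays, bars the mean and SD, and each panel has its own scale. The Catsper3 points of round spermatids lie between 1.84 and 2.47 and those of pachytene spermatocytes between -0.93 and 0.29, while the groups of the other 3 genes overlap.

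Catsper2, which encodes another pore subunit, was modestly higher in round spermatids of saline rats, and its difference did not pass in cyclophosphamide rats. After cyclophosphamide its log2 level was 4.81, 5.07 and 5.47 (lowest, median and highest) in round spermatids, against 5.0, 4.39, 4.91, 5.16 and 4.80 in the pachytene spermatocytes of rats 7, 15, 16-2011, 16-2012 and 29. These ranges overlapped, and the log2 difference was 0.25 ± 0.16 (95% interval -0.09 to 0.59, adjusted p = 0.169). It passed within slide 1, at 0.85 (adjusted p = 0.00824), and with slides 1 and 2 alone, at 0.51 (adjusted p = 0.0269). It did not pass within slide 2, at 0.17 (adjusted p = 0.487), or with slide as a block, at 0.39 (adjusted p = 0.0596). After saline its log2 level was 5.05, 5.25 and 5.34 in round spermatids, against 4.99, 4.34, 4.24, 5.22 and 4.56 in the pachytene spermatocytes of rats 13, 16, 25, 26 and 28. The round spermatid arrays were bunched and the pachytene arrays spread, and the array of rat 26 lay among the round spermatids. The log2 difference of 0.56 ± 0.16 passed (1.47-fold, 95% interval 1.16 to 1.86, limma, adjusted p = 0.00398). The call was lost within slide 1, where the difference was 0.31 (adjusted p = 0.226), and held within slide 2 at 0.92 (adjusted p = 0.00566).

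Catsper4, the third pore subunit measured, showed no difference between cell types that passed. The Catsper4 probe is annotated to a predicted transcript model, and its processed signal was 219 to 624 intensity units over the arrays. In cyclophosphamide rats its log2 level was -2.37, -2.10 and -1.90 (lowest, median and highest) in round spermatids, against -1.50, -2.30, -1.55, -2.01 and -1.65 in the pachytene spermatocytes of rats 7, 15, 16-2011, 16-2012 and 29. The ranges overlapped. The log2 difference was -0.34 ± 0.21 (95% interval -0.77 to 0.10, adjusted p = 0.142). In saline rats its log2 level was -2.83, -2.11 and -1.75 in round spermatids, against -2.30, -2.59, -1.49, -1.87 and -2.11 in the pachytene spermatocytes of rats 13, 16, 25, 26 and 28. The difference was -0.17 ± 0.21 (-0.60 to 0.26, adjusted p = 0.459). Neither interval reaches the size of the Catsper3 difference.

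Slc9c1, the exchanger, also did not pass in either treatment. In cyclophosphamide rats its log2 level was 2.72, 2.85 and 3.08 (lowest, median and highest) in round spermatids, against 3.01, 2.39, 2.76, 3.01 and 2.42 in the pachytene spermatocytes of rats 7, 15, 16-2011, 16-2012 and 29. The log2 difference was 0.15 ± 0.19 (95% interval -0.24 to 0.54, adjusted p = 0.478), and with slides 1 and 2 alone it was 0.46 (adjusted p = 0.032). It did not pass within slide 1 at 0.42 (adjusted p = 0.0712), within slide 2 at 0.50 (adjusted p = 0.131) or with slide as a block at 0.31 (adjusted p = 0.226). In saline rats its log2 level was 2.51, 2.98 and 3.07 in round spermatids, against 3.05, 1.90, 2.33, 3.26 and 2.83 in the pachytene spermatocytes of rats 13, 16, 25, 26 and 28. The pachytene arrays were widely spread on both sides of the round spermatids, with the array of rat 16 lowest. The difference was 0.25 ± 0.19 (-0.14 to 0.64, adjusted p = 0.24).

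Of the 4 measured genes, 1 was higher and none lower in round spermatids of cyclophosphamide rats, where 38.8% of all genes tested were higher and 40.4% lower. In saline rats 2 were higher and none lower, against 38.3% and 37.0% of all genes tested. Catsper3 was the one gene of the 4 whose round spermatid arrays lay wholly above its pachytene arrays, in each treatment. Over all genes, 32.5% did so in cyclophosphamide rats and 28.7% in saline rats. The median log2 difference over all genes tested was -0.02 in cyclophosphamide and 0.01 in saline rats. Counts over 4 genes are a description beside these shares.

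Ratios between the channel genes on the same array were compared between cell types, in 12 relations with an exact two-sided permutation test over arrays, whose smallest possible p is 0.0043. The ratio of Catsper3 to Catsper2, to Catsper4 and to Slc9c1 differed in each treatment (p = 0.0043 and Benjamini-Hochberg adjusted p = 0.0087 for each, exact test). On slides 1 and 2 the log2 ratio of Catsper3 to 2 of these genes was higher in round spermatids by 2.66 and 3.0 (Catsper4), 2.25 and 2.16 (Slc9c1) after cyclophosphamide and by 2.67 and 3.05 (Catsper4), 2.43 and 2.13 (Slc9c1) after saline, with 1 pachytene array a treatment on each slide. Against Catsper4 the log2 ratio was 3.16 higher in round spermatids after cyclophosphamide and 2.53 higher after saline. The ratio of Catsper2 to Catsper4 differed by 0.58 in cyclophosphamide rats (exact p = 0.026, adjusted p = 0.039), and by 0.73 in saline rats, where it did not pass (exact p = 0.0606, adjusted p = 0.0727). The ratio of Catsper4 to Slc9c1 differed by -0.48 in cyclophosphamide rats (exact p = 0.026, adjusted p = 0.039), and by -0.42 in saline rats, where it did not pass (exact p = 0.251, adjusted p = 0.274). On slides 1 and 2 that ratio differed by -0.41 and -0.84 after cyclophosphamide and by -0.24 and -0.92 after saline. The log2 ratio of Catsper2 to Slc9c1 did not pass in either treatment. It differed by 0.10 in cyclophosphamide rats (exact p = 0.563) and by 0.31 in saline rats (exact p = 0.039, adjusted p = 0.0519). Which ratios were tested was decided with the gene results known, and a ratio that moved shows unequal change and not which gene changed. Those of Catsper3 restate its larger difference between cell types.

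Catsper genes act with accessory proteins, and 5 of 11 listed partners were on the array. Catsperb, Catspere, Catsperz, Tmem249, Tmem262 and C2cd6 had no matched probe and were not analysed here. Efcab9 was higher in round spermatids in each treatment and did not overlap. Its log2 level was 4.52, 5.01 and 5.15 (lowest, median and highest) in round spermatids after cyclophosphamide, against 2.17, 2.54, 2.21, 2.01 and 2.50 in the pachytene spermatocytes of rats 7, 15, 16-2011, 16-2012 and 29. The log2 difference was 2.63 ± 0.17 (6.17-fold, limma, adjusted p = 2.24e-12). In saline rats the difference was 2.15 ± 0.17 (4.43-fold, adjusted p = 9.9e-11), from levels of 4.57 to 5.04 in round spermatids and 2.09 to 3.21 in pachytene spermatocytes. As for Catsper3, all 6 round spermatid arrays lay above all 5 pachytene arrays in each treatment.

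Slco6c1, an organic anion transporter family member found in the mouse CatSper complex, was higher by 0.59 ± 0.20 after cyclophosphamide (adjusted p = 0.0116) and by 0.68 ± 0.20 after saline (adjusted p = 0.00461), and passed in all 23 alternatives in each treatment. Its log2 difference was 1.03 within slide 1 and 1.14 within slide 2 after cyclophosphamide, and 0.63 and 1.1 after saline. With slide as a block it was 0.90 after cyclophosphamide and 1.05 after saline. Some of the 23 alternatives could not change the difference itself, as described in the section on processing. Catsperd, an accessory subunit with a large part outside the cell, was lower in round spermatids by 0.67 ± 0.18 after cyclophosphamide (log2 difference -0.67, adjusted p = 0.00208) and by 0.43 ± 0.18 after saline (log2 difference -0.43, adjusted p = 0.0374). The cyclophosphamide call of Catsperd was lost within slide 1, at -0.44 (adjusted p = 0.202), and held in 22 of 23 alternatives. Its saline call held in 9 of 23 alternatives. It was lost without the pachytene arrays of saline rats 13, 26 or 28 or the round spermatid arrays of saline rats 16, 17, 25, 28 or 29, with differences of -0.43 to -0.27. Trim69 had a log2 difference of 0.11 ± 0.13 after cyclophosphamide (adjusted p = 0.432) and of 0.30 ± 0.13 after saline, which passed (adjusted p = 0.0385) but in 10 of 23 alternatives only. It was lost without the pachytene arrays of saline rats 16 or 25 or the round spermatid arrays of saline rats 15, 25, 28 or 29, at 0.18 to 0.29. Catsperg, another accessory subunit, did not pass, at -0.14 ± 0.14 after cyclophosphamide (adjusted p = 0.395) and -0.05 ± 0.14 after saline (adjusted p = 0.776). With quantile normalization it passed as lower in round spermatids, at -0.35 after cyclophosphamide (adjusted p = 0.0136) and -0.29 after saline (adjusted p = 0.0394). In all, 2 of the 5 partners were higher and 1 lower in cyclophosphamide rats, and 3 higher and 1 lower in saline rats. Of all genes tested, 38.8% were higher and 40.4% lower in cyclophosphamide rats, and 38.3% higher and 37.0% lower in saline rats. The median log2 difference of the list was 0.11 in cyclophosphamide and 0.30 in saline rats.

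**Figure D2:**
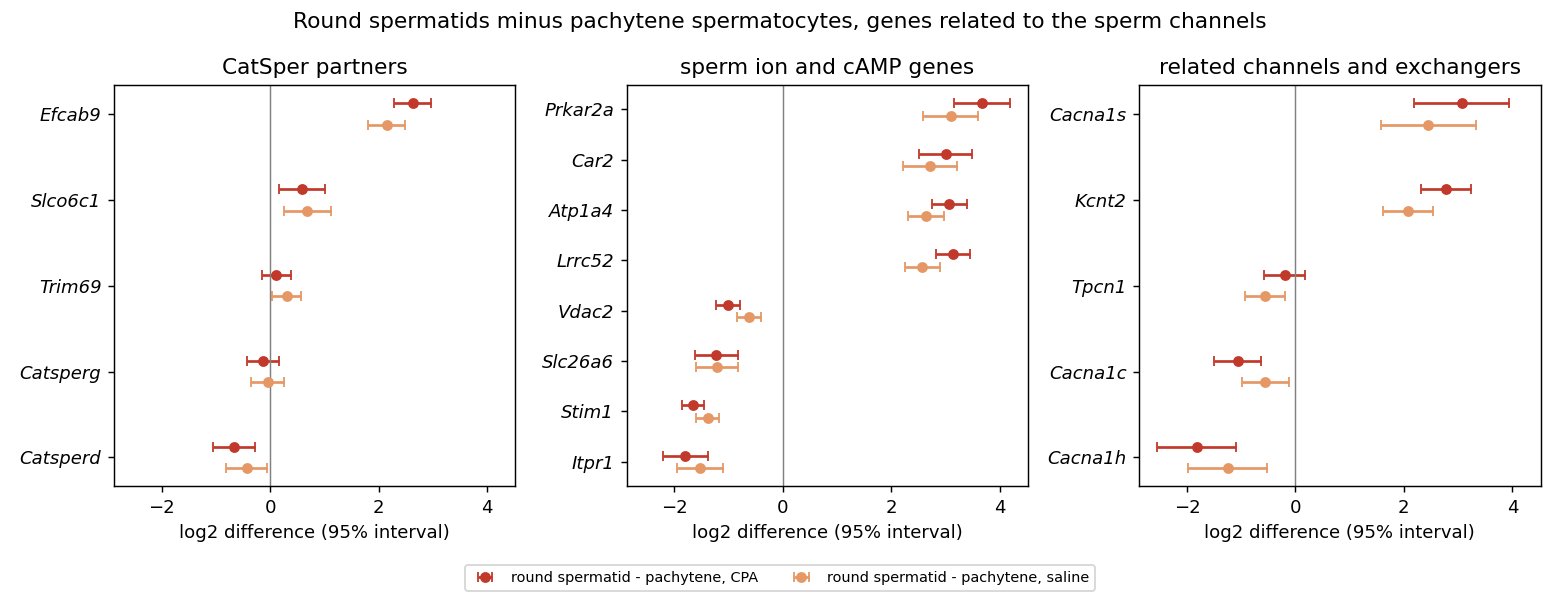
Log2 difference of round spermatids minus pachytene spermatocytes (limma estimate with 95% interval) in CPA and in saline rats, for the CatSper partners on the array and for the named genes of the other lists. Efcab9, Prkar2a, Car2, Atp1a4, Lrrc52, Cacna1s and Kcnt2 lie well to the right of 0, and Catsperg crosses 0 in each treatment.

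Of 26 listed genes for sperm ion balance and cyclic AMP signalling, 24 were on the array and 22 were tested. In saline rats 8 were higher in round spermatids, 6 lower and 8 did not pass, with a median log2 difference of 0.06. These counts stand beside 38.3% higher and 37.0% lower among all genes tested. The 4 largest rises were Prkar2a, a regulatory subunit of protein kinase A (log2 difference 3.09 ± 0.25), Car2, a carbonic anhydrase (2.71 ± 0.24), Atp1a4, the sodium pump subunit of sperm (2.64 ± 0.16), and Lrrc52, the accessory subunit of the SLO3 channel in mouse (2.57 ± 0.15). Lrrc52 was higher by 3.14 ± 0.15 in cyclophosphamide rats (adjusted p = 6.07e-14). The 4 largest falls were Itpr1, a calcium release channel of the endoplasmic reticulum (log2 difference -1.52 ± 0.20), Stim1, the calcium sensor of the same store (-1.39 ± 0.10), the anion exchanger Slc26a6 (-1.21 ± 0.19) and the mitochondrial porin Vdac2 (-0.63 ± 0.11). Adcy10, the soluble adenylyl cyclase, was higher by 1.69 ± 0.12 and was chosen for naming after its value was seen, as was Plcz1, the sperm phospholipase that starts egg activation, at 2.50 ± 0.16. The protein kinase A genes Prkaca and Prkar1a, also named after their values were seen, did not pass in saline rats. Their differences were 0.09 ± 0.12 (limma, adjusted p = 0.484) and 0.09 ± 0.13 (limma, adjusted p = 0.56). In cyclophosphamide rats 8 of the 22 were higher and 7 lower, where 38.8% of all genes tested were higher and 40.4% lower.

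Of 26 listed relatives that act mostly in other tissues, 18 were on the array and 13 were tested, with 2 higher, 5 lower and 6 that did not pass in saline rats, where 38.3% of all genes tested were higher and 37.0% lower. The rises were the muscle calcium channel Cacna1s (log2 difference 2.45 ± 0.42) and the sodium-activated potassium channel Kcnt2 (2.08 ± 0.22). The falls included the calcium channel Cacna1h (-1.25 ± 0.35), the calcium channel Cacna1c (-0.56 ± 0.21) and the lysosomal cation channel Tpcn1 (-0.56 ± 0.18). Kcnt2 was well above background on 4 of 5 cyclophosphamide pachytene arrays, and Cacna1c on 3 of 6 cyclophosphamide and 5 of 6 saline round spermatid arrays. In saline rats the count of calls fell within slide 1 and within slide 2, which held 1 saline pachytene array each.

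Between cyclophosphamide and saline no channel gene passed in either cell type, and with all arrays no other gene tested passed. In round spermatids the log2 difference of cyclophosphamide minus saline was -0.13 ± 0.16 for Catsper2 (95% interval -0.45 to 0.20), 0.15 ± 0.15 for Catsper3 (-0.16 to 0.46), 0.11 ± 0.20 for Catsper4 (-0.30 to 0.52) and -0.06 ± 0.18 for Slc9c1 (-0.43 to 0.32). Of 18864 genes tested there 0.0% passed, the smallest adjusted p was 0.959 and 626 had an unadjusted limma p under 0.05. The groups of all 4 channel genes overlapped, where 0.191% of all genes did not.

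In pachytene spermatocytes the difference was 0.18 ± 0.17 for Catsper2 (-0.17 to 0.54, adjusted p = 0.83), -0.31 ± 0.16 for Catsper3 (-0.65 to 0.03, adjusted p = 0.681), 0.27 ± 0.22 for Catsper4 (-0.18 to 0.72, adjusted p = 0.792) and 0.04 ± 0.20 for Slc9c1 (-0.36 to 0.45, adjusted p = 0.966). Here 0.0% of 18470 genes passed, 1347 had an unadjusted limma p under 0.05, and 0.628% of genes had groups that did not overlap. The groups of all 4 channel genes overlapped. The summed round spermatid marker level was lower on these cyclophosphamide arrays as well, with a median of 46.5 after cyclophosphamide and 56.2 after saline. None of the 11 markers passed, and their median log2 difference was -0.42, and their part in the values of the channel genes was not tested. Of the partners, Efcab9 had a difference of -0.36 ± 0.17 (adjusted p = 0.681), and no partner or gene of the other lists passed in either cell type.

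**Figure D3:**
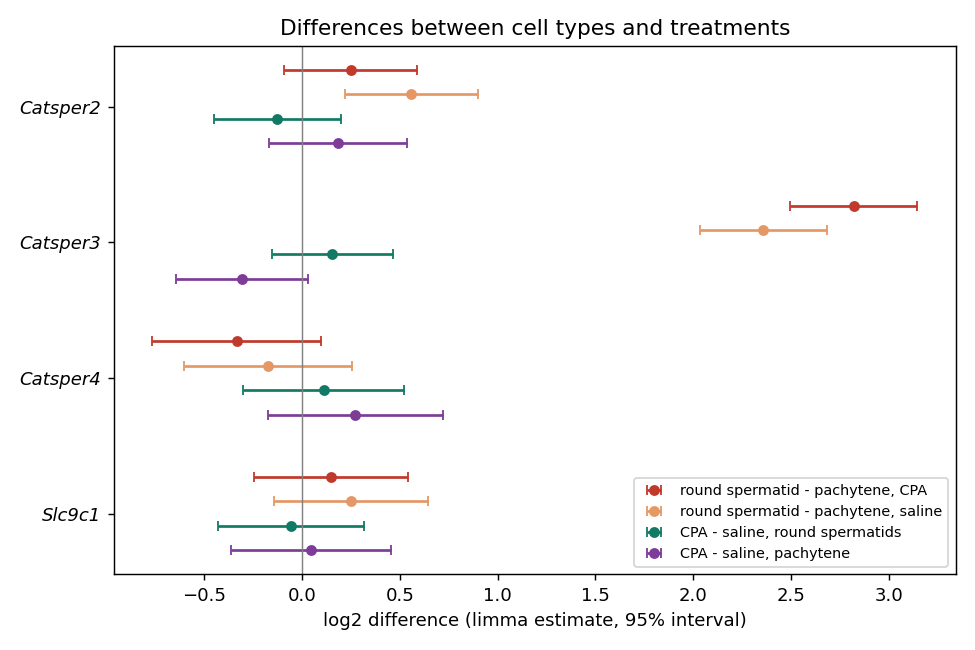
Log2 differences (limma estimate with 95% interval) of the 4 measured channel genes for round spermatids minus pachytene spermatocytes in CPA and saline rats, and for CPA minus saline in round spermatids and in pachytene spermatocytes. The Catsper3 cell type differences of 2.82 and 2.36 stand clear of 0, and all 8 drug intervals cross 0.

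Whether the drug difference varied with the cell type was tested as an interaction. For Catsper3 it was 0.46 ± 0.22 (95% interval 0.002 to 0.92, limma, adjusted p = 0.634), for Catsper2 -0.31 ± 0.23 (adjusted p = 0.692), for Catsper4 -0.16 ± 0.29 (adjusted p = 0.873) and for Slc9c1 -0.10 ± 0.27 (adjusted p = 0.914). No gene passed among 19664 tested (0.0%), and 1504 had an unadjusted limma p under 0.05. The larger fold change of Catsper3 between cell types in cyclophosphamide rats is therefore not shown to differ from that in saline rats.

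The 10 pachytene arrays spread widely in the channel genes, and 10 relations across them were computed with two-sided permutation tests. Catsper2 and Slc9c1 moved together (Pearson's r = 0.855, permutation p = 0.00306, adjusted p = 0.0153; Spearman's rho = 0.915, permutation p = 0.00066, adjusted p = 0.0066), and r was 0.794 without the 2 arrays farthest from the median of Catsper2. Catsper3 moved with the summed round spermatid marker level (r = 0.839, permutation p = 0.00152, adjusted p = 0.0152; rho = 0.83, permutation p = 0.00414, adjusted p = 0.0207), and r was 0.751 without the 2 farthest arrays. None of the other 8 relations passed after adjustment. Cyclophosphamide and saline arrays were pooled without taking off group means, so a difference between treatments can enter these values. A slide held at most 3 pachytene arrays, too few for a value within slides. The arrays share their own scaling, so these relations are a description. Trim69 stood at 4.132 and 4.199 on the arrays of saline rat 26 and cyclophosphamide rat 16-2012, against 3.384 and 3.626 for saline rats 16 and 25. Slco6c1, Catsperd and Catsperg were likewise higher on the former arrays, and Efcab9 was lower there. Whether Catsper2 and Slc9c1 moved together more closely than other genes was not tested. Saline rat 16 had the highest marker sum, 80.8, and also the highest Catsper3 level, 0.29, with the lowest Catsper4, -2.59, and the lowest Slc9c1, 1.90. The lowest marker sum, 41.3, was on the array of cyclophosphamide rat 16-2012, where Catsper3 was lowest, at -0.93, and Catsper2 stood at 5.16. The macrophage sum was also highest on the array of saline rat 16, at 22.3, and lowest on that of rat 16-2012, at 8.76. The late spermatid sum was lowest on the latter array too, at 427, and highest for saline rat 13, at 839. Catsper3 was related to the round spermatid list only. Whether it moved as closely with the other lists, or more closely than other genes did, was not tested.

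**Figure D4:**
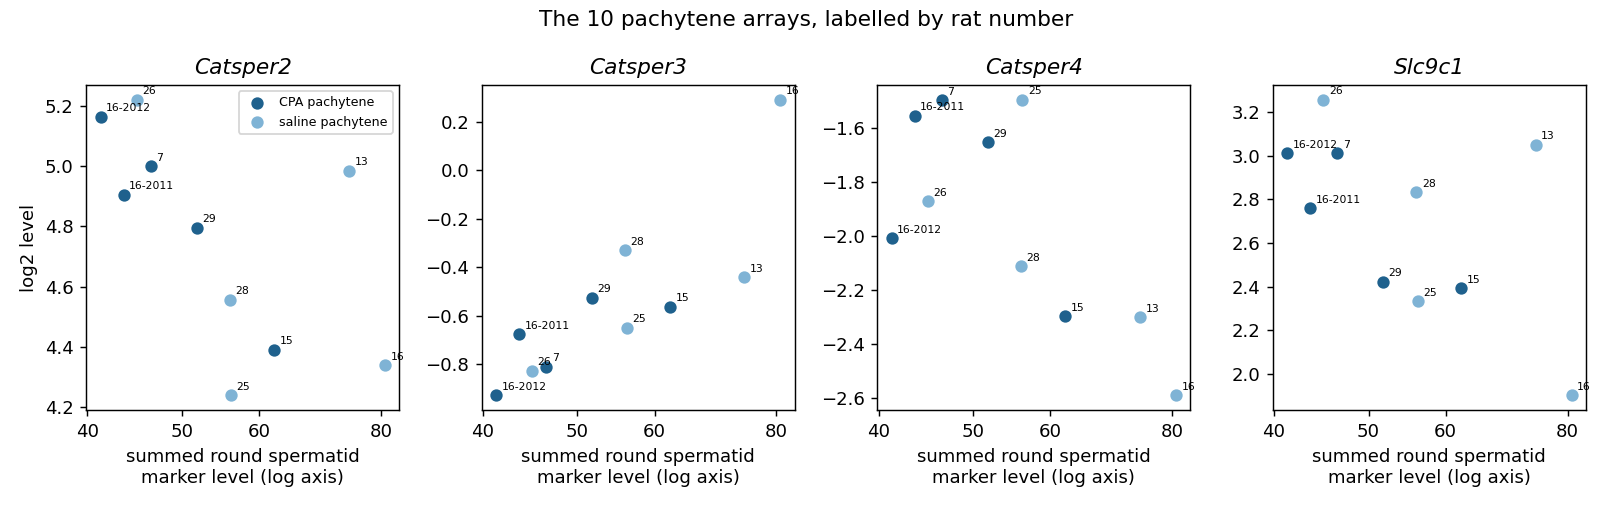
Log2 level of each measured channel gene against the summed level of 11 round spermatid markers (log axis, in units of the array's 75th percentile) on the 10 pachytene arrays, labelled by rat number, for CPA and saline rats. Catsper3 is lowest, at -0.93, on the array with the lowest sum, 41.3, and highest, at 0.29, on the array with the highest, 80.8.

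For each channel gene the 3 genes most alike across the 22 arrays were found among 11213 genes, by the root-mean-square difference in log2 level after each gene's own mean was taken off. For Catsper3 they were Homez (0.11), Mmel1 (0.12) and Selenov (0.12), where the median gene lay at 1.38. For Catsper2 they were Faf2, Cyld and Mrps34 (0.12 each, median 0.70). For Slc9c1 they were Trim69 (0.14), which is also listed as a partner, Vps26a (0.15) and Capn11 (0.15, median 0.69). For Catsper4 they were Lrrc38 (0.17), Uqcrq and Hes2 (0.21 each, median 0.69).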

How the data were processed

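Scanner files of 22 one-colour Agilent arrays were used. Per the file headers the deposited intensity values are processed signals that Feature Extraction 10.7.3.1 background-subtracted, while the submitters' processing notes name version 11.5.1.1. A table of log2 values deposited by the authors followed the scanner log2 signals centred within a cell type (r of 0.959 to 0.994 with each column's own array, at most 0.574 with another); its column medians were -0.0098 to 0.007, and its exact scaling stays unknown. It served as an alternative for the drug comparisons.

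Control and outlier spots were left out and spots of 1 probe averaged. Of 30367 probes, 17998 (59.3%) were named through the RefSeq table of GRCr8, with 1 probe per gene (highest mean). A gene was tested where more than 0.5 of its spots were well above background on all but at most 1 array of a group. The log2 signal minus the array's 75th percentile was fitted with limma 3.58.1 (lmFit, eBayes; R 4.3.3, statmod 1.5.0) as 4 group means on all arrays, with p adjusted by Benjamini-Hochberg over all genes tested and a threshold of 0.05, and was checked on simulated data. Tables were made in Python (3.11.15; scipy 1.17.1, numpy 2.4.6, matplotlib 3.10.9, pandas 2.3.3). The normexp alternative used the median signal, with an offset of 50. Correlations used 100000 permutations. ± is the standard error of limma for differences.

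The members and lists were chosen with earlier results of these data known. Named are all members and partners, the 4 largest passing differences in each direction of the 2 other lists in saline rats, and the 3 most alike genes per member; 1 gene that this rule names is not reported here. Whether equal rat numbers name the same animal is not given in the labels. Deviations of arrays that shared a number and a treatment correlated at -0.0876 (saline, number 25) to 0.381 (saline, number 28). Arrays with different numbers were not compared, so these values cannot decide on pairing. The numbers were not taken as pairs. Alternatives were another background correction, normalization, filter, probe choice, slide and replicate block, single slides, and each array left out in turn. The number of arrays limits the precision.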

Additional observations from a re-analysis of the deposited data

Results flagged for a closer look

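Of 36 sets of arrays from 1 gene and 1 group that were examined, 3 held an array that stood apart by Dixon's test, and chance alone gives about 1 in 20. In saline round spermatids the Catsper3 log2 level of rat 29 was 2.20, above the next highest at 1.97. In the same group the Slc9c1 log2 level of rat 16 was 2.51, below the next lowest at 2.94. In saline pachytene spermatocytes the Catsperg log2 level of rat 26 was 3.44, above the next at 2.80.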

How the results depend on the processing

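The cell type call of Catsper3 and Efcab9 held under all 23 alternatives in each treatment, with log2 differences of 2.66 to 2.88 after cyclophosphamide and 2.25 to 2.65 after saline for Catsper3. These 2 genes, Slco6c1, Catsperd and Trim69 had 1 probe each, well above background on all arrays. For them the alternatives of filter, of probe choice and of only the groups compared keep the same difference and can alter only its p. The 23 are therefore not independent checks. Channel genes that passed between cell types in cyclophosphamide rats numbered 3 with slides 1 and 2 alone (1 with all arrays). Of all genes tested, 14332 of 19891 passed with those slides and 15323 of 19352 with all arrays. In each treatment the count of channel genes also moved within slide 1, where each pachytene group was 1 array. Partners that passed in saline rats (4 with all arrays) numbered 2 without a filter on dim probes and with only the groups compared. They also numbered 2 with slide as a block and with slides 1 and 2 alone. The count was 2 to 3 with 1 array left out, and it also fell within slide 1 and within slide 2. Of all genes tested in saline rats, 14117 of 19422 passed with slide as a block and 13380 of 20162 with slides 1 and 2 alone. With all arrays 14621 of 19422 did. The count of relatives that passed in saline rats fell within slide 1 and within slide 2 as well. Over all genes the drug calls in round spermatids, 0 with all arrays, numbered 1 within slide 1 and 4 within slide 2. In pachytene spermatocytes they numbered 0 with all arrays and 6 with slides 1 and 2 alone. Within each single slide at least 1 treatment had a lone pachytene array, so its counts of pachytene drug and interaction calls are not given. The interaction calls numbered 1 with slides 1 and 2 alone, and 0 to 1 with 1 array left out. Restricting to slides 1 and 2 was chosen after seeing the data.

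Direction reversed for values that had not passed, apart from Trim69. Between cell types in saline rats, Slc9c1 was -0.0586 and Trim69 -0.0005 within slide 1, and Catsperg was 0.0202 with normexp, 0.0845 with slide as a block, 0.002 within slide 1, 0.0861 within slide 2, 0.0441 with slides 1 and 2 alone, and -0.102 to 0.103 with 1 array left out. After cyclophosphamide, Catsper4 was 0.012 within slide 1, and with quantile normalization Slc9c1 was -0.0496 and Trim69 -0.0592. For the drug in round spermatids within slide 2, Catsper4 was -0.0937 and Slc9c1 0.0684, and Catsper4 ranged from -0.0076 to 0.208 with 1 array left out. For the drug in pachytene spermatocytes, Catsper2 was -0.59 within slide 1 and -0.0184 with slides 1 and 2 alone, Catsper3 0.12 within slide 2 and 0.0018 with slides 1 and 2 alone, Catsper4 -0.157 within slide 2 and -0.0772 with slides 1 and 2 alone, and Slc9c1 -0.66 within slide 1, -0.28 with slides 1 and 2 alone and -0.15 to 0.19 with 1 array left out. The interaction within slide 1 was 0.53 for Catsper2, 0.31 for Catsper4 and 0.48 for Slc9c1; within slide 2 it was 0.0634 for Catsper4; with slides 1 and 2 alone it was 0.19 for Catsper4 and 0.23 for Slc9c1, and Slc9c1 ranged from -0.245 to 0.0925 with 1 array left out. The cause was not tested; slides 1 and 2 held 1 pachytene array per treatment each, and a lone array is assumed to vary like the other groups.

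With rat number as a replicate block, the log2 difference of Catsper3 was 2.82 in cyclophosphamide and 2.36 in saline rats, and the block changed no count of calls on the channel genes and lists. The labels do not say that equal numbers name the same rat.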
